A study of Mus musculus with 2148 samples.

Results

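Keratinocyte-like mTEC were medullary thymic epithelial cells (mTEC) that carried RNA of the suprabasal and cornifying epidermis. The cells were chosen by measured RNA levels: a cell was counted as keratinocyte-like when at least 4 of 8 genes (Krt10, Krt1, Ivl, Lor, Sbsn, Dmkn, Krtdap and Spink5) reached 20 CPM, its counts per 1000000 reads. The rule found 50 cells, 2.83% of all mTEC (exact 95% binomial interval 2.11 to 3.72%), and all other mTEC were the comparison. The cells came from C57BL/6 mice, were sorted as DAPI- CD45- EpCAM+ Ly51- cells with high (mTEChi) or low (mTEClo) MHC class II, and were read 1 by 1 with RamDA-seq, a full-length method for total RNA. Adult wild-type (WT) mTEChi came from 4 mouse pools (2 of 4 weeks, male and female, and males of 5 and 6 weeks) and adult WT mTEClo from 3 pools of males of 8, 5 and 4 weeks. Adult Aire-KO mTEChi and mTEClo, from males of 5 weeks labelled as Aire knockouts, and neonate WT mTEChi and mTEClo, of 1 day and unknown sex, came from 1 pool each. A pool here means the cells of a group that share age and sex in the labels. How many mice stand behind each pool is not given in the sources used here, so p-values over pools measure the spread between pools.

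Medullary epithelium shows developing T cells the proteins of peripheral tissues, partly through the regulator Aire and partly through small populations of epithelial cells that take on the gene programmes of skin, gut, muscle, tuft or other cells. In epidermis, basal keratinocytes attached to the basement membrane leave the cell cycle and move upward. They exchange the basal keratins for Krt1 and Krt10, strengthen their desmosomes, secrete lipids and assemble a cross-linked protein shell, the cornified envelope. Of the 8 genes, Krt10 and Krt1 encode the paired keratins of the spinous layer, and Ivl (involucrin) and Lor (loricrin) encode precursors of the envelope. Sbsn (suprabasin), Dmkn (dermokine) and Krtdap encode secreted proteins of the suprabasal layers, and Spink5 encodes LEKTI, an inhibitor of the kallikrein proteases that loosen the outermost cells.

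Sbsn, Dmkn and Krtdap lie next to each other on chromosome 7, within 39627 bases, so the 8 genes stood at 6 places in the genome. A promoter sequence was at hand for 6 of the 8, and these are shown. Krt1 and Spink5 had none and were not searched. Of the 6, 5 held the same short motif close to the start of transcription. Each sequence is from RefSeq (GRCm38.p6), runs 5′ to 3′ on the gene's strand and covers 250 bases before and 10 bases from the annotated start. Capitals mark TGANTCA, the letters bound by AP-1 (Jun and Fos proteins), and TATAAA, the TATA box.
Sbsn, chr7:30751221-30751480, plus strand: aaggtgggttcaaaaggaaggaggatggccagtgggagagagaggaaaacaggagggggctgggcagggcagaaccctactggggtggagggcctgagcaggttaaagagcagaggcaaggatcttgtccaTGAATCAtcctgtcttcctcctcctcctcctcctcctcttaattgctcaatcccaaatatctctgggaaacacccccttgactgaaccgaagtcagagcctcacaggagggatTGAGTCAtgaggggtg
Dmkn, chr7:30763506-30763765, plus strand: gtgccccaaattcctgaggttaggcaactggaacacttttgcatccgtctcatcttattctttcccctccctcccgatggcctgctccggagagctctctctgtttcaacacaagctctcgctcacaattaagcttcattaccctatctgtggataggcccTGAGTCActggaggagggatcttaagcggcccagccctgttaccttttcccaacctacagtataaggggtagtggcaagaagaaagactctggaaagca
Krtdap, chr7:30787655-30787914, plus strand: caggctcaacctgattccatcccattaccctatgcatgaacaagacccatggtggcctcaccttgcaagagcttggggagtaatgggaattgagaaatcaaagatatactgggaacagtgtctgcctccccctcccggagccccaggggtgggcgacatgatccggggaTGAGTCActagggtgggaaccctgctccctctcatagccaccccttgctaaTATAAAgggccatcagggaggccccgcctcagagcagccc
Krt10, chr11:99389355-99389614, minus strand: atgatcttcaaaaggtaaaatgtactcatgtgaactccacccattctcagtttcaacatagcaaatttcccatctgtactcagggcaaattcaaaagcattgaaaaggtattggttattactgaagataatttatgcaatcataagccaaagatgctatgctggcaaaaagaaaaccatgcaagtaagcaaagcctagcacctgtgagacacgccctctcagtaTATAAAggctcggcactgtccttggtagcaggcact
Ivl, chr3:92573726-92573985, minus strand: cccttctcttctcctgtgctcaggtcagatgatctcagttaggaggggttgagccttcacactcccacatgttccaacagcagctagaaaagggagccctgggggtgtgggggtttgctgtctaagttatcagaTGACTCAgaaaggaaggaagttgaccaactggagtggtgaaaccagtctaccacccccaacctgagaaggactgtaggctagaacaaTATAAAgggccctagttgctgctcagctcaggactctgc
Lor, chr3:92083133-92083392, minus strand: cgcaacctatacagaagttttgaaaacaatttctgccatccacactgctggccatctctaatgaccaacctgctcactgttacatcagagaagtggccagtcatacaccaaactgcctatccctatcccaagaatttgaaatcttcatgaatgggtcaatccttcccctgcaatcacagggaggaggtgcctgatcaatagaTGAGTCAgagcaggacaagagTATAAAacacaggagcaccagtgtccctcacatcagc

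TGANTCA, which reads almost the same on both strands and was searched on both, was present in the 300 bases around the start (250 before, 50 after) of Sbsn, Dmkn, Krtdap, Ivl and Lor, and absent from that window of Krt10. It began 48 bases before the start of Lor, 81 before Krtdap and 89 before Dmkn, and Sbsn held a copy 6 bases before its start and, like Ivl, a copy more than 100 bases before it. The same letters were found in 7.81% of all RefSeq promoter sequences of this length, and in at least 1 promoter of 8.97% of genes. TATAAA was found in 4 of the 6 promoters, 26 to 30 bases before the starts of Krtdap, Krt10, Ivl and Lor, against 13.6% of all sequences and 15.7% of genes. The palindrome AACCGGTT bound by Grhl proteins, and its looser form AACNGGTT, were found in none of the 6 and in 0.146% and 2.09% of all sequences. These matches are letters in a window, and the motifs were chosen with earlier results of these data known. Among genes called higher in keratinocyte-like cells (see the paired comparison), 13.3% of those with a promoter sequence held TGANTCA, among those called lower 7.08%, and among all tested genes 7.24%. In the same order, TATAAA was held by 8.85%, 8.54% and 10.6%, AACNGGTT by 3.82%, 1.25% and 2.37%, and AACCGGTT by 0.402%, 0.208% and 0.235%. AACNGGTT rests on 19 genes called higher and 6 called lower. These differences in share were not tested.

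Reads per cell overlapped widely between keratinocyte-like and other mTEC: 212500 to 1425011 reads per cell (median 599788) and a median of 12316 detected genes, against 203010 to 1823784 reads (median 684248) and 12875 genes. Adult WT mTEClo pool 1 stood apart from the other male pools. Reads of Xist, transcribed from the inactive X of female cells, were found in 94.5% of its cells with more Y-linked than Xist reads, against 6.83 to 25.7% in the 7 other adult male pools, so most list counts and calls that use it are also given without it.

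Keratinocyte-like cells were found in both sorts, both ages and both genotypes, at shares of 0 to 7.02%. In adult WT mTEChi they were 21 of 620 cells (3.39%, interval 2.11 to 5.13%), and in adult WT mTEClo 7 cells (1.96%, 0.792 to 3.998%). In adult Aire-KO mTEChi they were 8 cells (2.37%, 1.03 to 4.61%), and in adult Aire-KO mTEClo no cell, where the limit of 3 counts is 1.95% and the exact interval reaches 2.37%. Neonate WT mTEChi had the highest share, 12 cells (7.02%, 3.68 to 11.9%), and neonate WT mTEClo held 2 (1.61%, 0.196 to 5.70%). Intervals and limits cover counting error only.

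The 4 adult WT mTEChi pools gave 3.38% (15 cells), 0 of 12 cells (a limit of 25%, exact interval up to 26.5%), 2.44% (2 of 82) and 4.88% (4 of 82), and the 3 adult WT mTEClo pools gave 2.30% (5 cells), 2.70% (2 of 74) and 0 of 66. The mean share was 2.67% ± 2.05 (SD, n = 4) in mTEChi and 1.67% ± 1.46 (SD, n = 3) in mTEClo, and the difference of 1.00 percentage points did not pass a two-sided exact permutation test (p = 0.514), whose smallest possible p with 4 and 3 pools is 0.0571. The difference was 1.32 points without mTEClo pool 1, 0.17 without mTEClo pool 3, 0.27 without mTEChi pool 4, and −0.15 when 5 of the 8 genes were required. Aire-KO and neonate groups held 1 pool each, so their shares have no replicate check and were not tested. Among plates, 5 of the 8 Aire-KO cells were on a single plate (5.81% of its cells) and the share on the 3 other Aire-KO mTEChi plates was 0 to 2.30%. Neonate mTEChi plates ran from 0 to 12.5%.

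**Figure D1:**
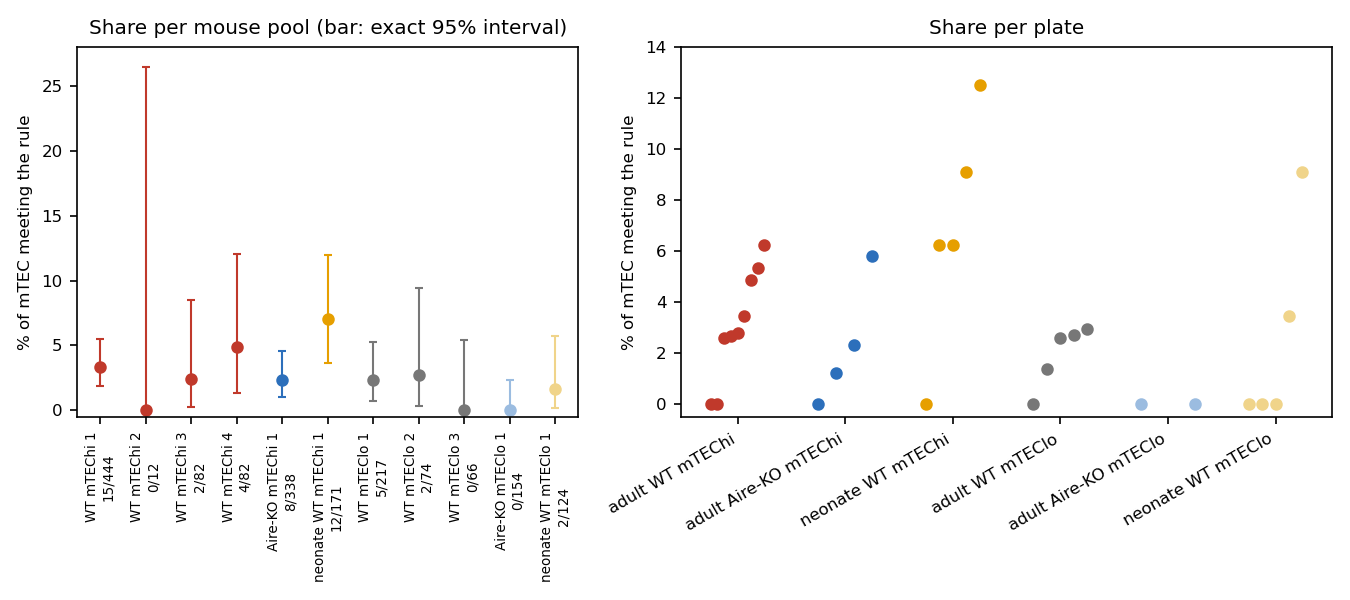
Share of mTEC that met the keratinocyte-like rule, in percent. Left, 1 point per mouse pool with its exact 95% binomial interval and the cells counted under each name; right, 1 point per plate. The neonate WT mTEChi pool is the highest at 7.02%, with an interval that overlaps that of the adult WT mTEChi pools, and plates of a group differ by several points.

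The 8 genes were not reached equally, and these counts describe what chose the cells. Dmkn reached 20 CPM in 48 of the 50 cells (median 537.1 CPM), Spink5 in 45 (648.5 CPM), Sbsn in 39 (61.03 CPM), Krtdap in 37 (193.6 CPM), Krt1 in 35 (45.8 CPM), Krt10 in 32 (37.1 CPM) and Ivl in 28 (28.4 CPM). Lor, of the latest stage of cornification, reached it in only 5 cells and had no reads in 38. Among other mTEC the same level was reached most often by Dmkn (13.0%), Spink5 (10.7%) and Krt10 (10.5%), and by Ivl in 1.75% and Lor in 0.758%. Of all mTEC, 54.6% had none of the 8 genes at 20 CPM, 28.4% had 1 and 10.9% had 2, and 56 cells had 3, 20 had 4, 7 had 5, 11 had 6, 8 had 7 and 4 had all 8, so the cut ran through a thinning tail without a gap. Just outside it, the 56 cells with 3 genes had median levels of 67.8 CPM Dmkn, 30.4 CPM Spink5 and 1.67 CPM Krtdap, and just inside it the 20 cells with 4 genes had 169.3, 68.8 and 61.9 CPM.

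The 3 neighbours on chromosome 7 were often reached together: 30 of the 50 cells had all 3, each of the 39 cells with Sbsn also had Dmkn, and 1 cell had none of the 3. In 16 cells the other 5 genes alone met the rule. Counted by place in the genome, 7 cells were reached at 2 of the 6 places, 11 at 3, 17 at 4, 11 at 5 and 4 at all 6. Krt10 and Krt1, whose proteins pair into filaments, were both at 20 CPM in 24 cells, out of 32 with Krt10 and 35 with Krt1.

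Which of the 8 genes were reached varied by group. All 8 Aire-KO cells had Dmkn (422.5 to 1865.3 CPM), Krtdap (154.4 to 735.97 CPM) and Spink5 (486.2 to 4879 CPM), whereas Krtdap was reached in 12 of the 21 adult WT mTEChi cells (0 to 2086 CPM, median 41.8 CPM). The 7 adult WT mTEClo cells held the highest median levels of Krt10 (840.04 CPM, 11.8 to 5768 CPM) and Spink5 (1958.7 CPM, 24.3 to 4226 CPM), and the 12 neonate mTEChi cells lower medians of 25.2 CPM Krt10 and 225.7 CPM Spink5. These values chose the cells and were not tested.

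**Figure D2:**
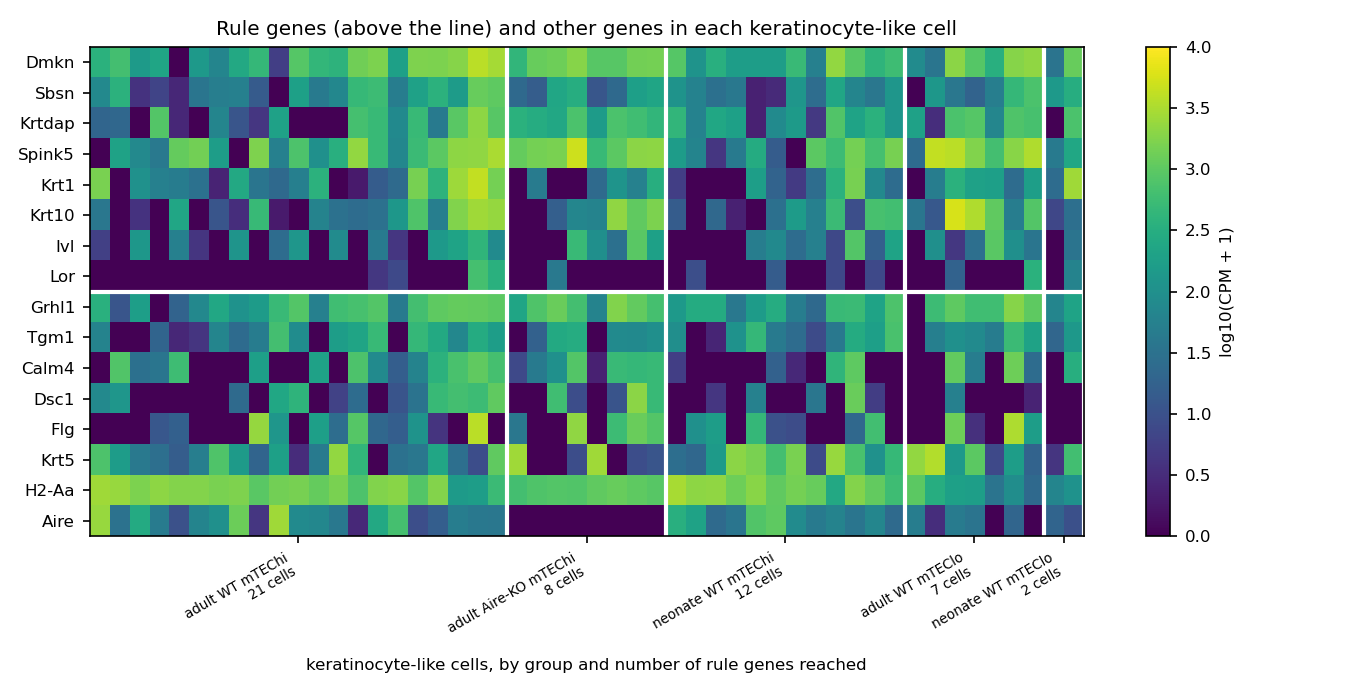
Level of the 8 genes of the rule (above the white line) and of 8 other genes in each of the 50 keratinocyte-like cells, as log10(CPM + 1); columns are cells, in 5 blocks by group and ordered within a block by the number of rule genes reached. Dmkn and Spink5 fill nearly every column and Lor nearly none, and the Aire row is 0 in all 8 Aire-KO cells.

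To ask what else these cells carried, the counts of keratinocyte-like cells and of the other mTEC were summed within each pool that held at least 3 of them, and the sums were compared within pools with edgeR's quasi-likelihood test. This used 5 pools and 44 of the 50 cells: 8 cells of Aire-KO mTEChi, 15 of adult WT mTEChi pool 1, 4 of pool 4, 5 of adult WT mTEClo pool 1 and 12 of neonate mTEChi. A gene was called when its Benjamini-Hochberg adjusted p was under 0.05 and its change at least 2-fold. The genes of the rule, and a transcript overlapping Krt10, were left out. Of 23479 genes tested, 2.87% were called higher and 2.84% lower in keratinocyte-like cells, and the median log2 fold change of all tested genes was −0.39. Leaving out 1 pool gave 1.65 to 3.30% of genes called in place of 5.71%, with the 3.30% without mTEClo pool 1. Of 75 called genes chosen to be named, 24 stayed called under every alternative run: Adgrf4, Aloxe3, Calm4, Cebpa, Cebpb, Cers3, Cysrt1, Dsp, Evpl, Gjb6, Grhl1, Jup, Klf4, Krt23, Krt79, Krt80, Lipk, Lipm, Lypd3, Perp, Ppl, Rptn, Sez6 and Tgm1. The calls of the other 51 were lost in at least 1 alternative, and 17 of them were lost without mTEClo pool 1, among them Alox12b, Cldn1, Dsc1, Klk8, Trex2, Ciita, Cenpf, Lrat, Ptprv, Cdx1, Insm1, Col3a1, Far2, Plet1, Prss8 and Tgm3. Among those lost in most alternatives were Tgm3, Prss8, Far2, Tnfaip2, Cenpf, Mcm5, Ciita, Barx2, Ptprv and Col3a1. Ciita, Cenpf, Far2, Klk8, Prss8 and Trex2 were lost whichever single pool was left out. Since the cells were chosen for keratinocyte genes, genes usually read in the same cells are not independent of that choice. Values below are CPM of the summed cells in the order Aire-KO mTEChi, WT mTEChi pool 1, WT mTEChi pool 4, WT mTEClo pool 1 and neonate mTEChi, and log2 fold changes are given as keratinocyte-like minus other mTEC with the standard error (SE).

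Genes for the lipid barrier of skin were mostly higher: 11 of 16 were called higher and none lower, all 16 had a fold change above 0, and their median log2 fold change was 3.82. Without mTEClo pool 1 the count was again 11, and it was 7 to 9 without any other single pool. Lipk, an acid lipase of the upper epidermis, was at 191.9, 76.5, 153.5, 165.3 and 35.2 CPM against 0.57, 6.90, 0.366, 0.552 and 0.961 CPM in other mTEC. Its log2 fold change of 7.02 (SE 1.00, adjusted p = 0.0140) was the largest rise among the genes named by size. Aloxe3, a lipoxygenase that oxidises barrier ceramides, was at 103.7, 166.2, 247.7, 106.8 and 105.3 CPM against 2.08 to 15.1 CPM (log2 fold change 4.32, SE 0.38, adjusted p = 0.00614). Its partner Alox12b (3.95), the ceramide synthase Cers3 (4.62), the ceramidase Acer1 (5.65), the lipase Lipm (4.61), the acylceramide-forming enzyme Pnpla1 (4.29) and the lamellar-body lipid transporter Abca12 (5.18) were also called higher, and in each the groups of 5 sums did not overlap. Abca12 was uneven, with 553.1 CPM in WT mTEClo pool 1 and 279.6 CPM in WT mTEChi pool 1 against 29.2 CPM in neonate cells.

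Few envelope proteins were called, and many were hardly read. Of 47 structural genes, 23 had too few reads for the test and 5 of the remaining 24 were called higher and none lower (19 above 0, median log2 fold change 3.32), as were 5 of 26 without mTEClo pool 1. Rptn (repetin) was at 1631.8, 1233.8, 607.5, 1266.6 and 921.8 CPM against 26.2 to 190.5 CPM (log2 fold change 3.40, SE 0.49, adjusted p = 0.0149). Hrnr (hornerin, 4.11), Scel (sciellin, 5.59), Cnfn (cornifelin, 6.19) and the small proline-rich protein Sprr2d (5.83) were also called. Flg, the filaggrin precursor that packs keratin filaments, was at 534.5, 510.2, 12.8, 993.98 and 124.2 CPM against 17.96, 21.6, 18.3, 4.11 and 20.9 CPM. It was below the other mTEC in WT mTEChi pool 4, and its log2 fold change of 4.14 (SE 1.24) was not called (adjusted p = 0.0933). Flg2 (4.80, adjusted p = 0.129) and Cdsn, of the corneodesmosome (3.23, adjusted p = 0.186), were not called either.

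Of 10 tested enzymes of cornification, 6 were called higher and none lower (median log2 fold change 2.70), and 2 to 5 with 1 pool left out. Tgm1, the membrane-bound transglutaminase that cross-links the envelope, was at 112.5, 155.5, 137.7, 173.7 and 195.6 CPM against 8.67 to 26.1 CPM, among the most even rises over pools (log2 fold change 3.65, SE 0.27, adjusted p = 0.00614). Tgm5 (2.82) and Tgm3 (1.81), Asprv1, a protease that cuts filaggrin (2.58), the filaggrin-degrading hydrolase Blmh (1.69) and the calmodulin-like Calm4 (5.76) were called too. Casp14, a caspase of terminal differentiation, was at 27.4 ± 28.6 CPM (SD, n = 5 pools) against 5.53 ± 8.36 CPM and was not called (adjusted p = 0.237). Among 20 tested kallikreins and protease inhibitors, 7 were called higher and none lower (median 1.98; 3 without mTEClo pool 1 and 0 to 3 without another pool), with Klk8 (4.56), Serpinb2 (3.18), Cst6 (1.98), Prss8 (1.16) and Spint1 (1.11). Klk7, a desmosome-degrading kallikrein, was at 163.2 ± 66.3 CPM against 17.3 ± 16.5 CPM without passing (log2 fold change 4.62, SE 1.84, adjusted p = 0.172).

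Of 16 suprabasal and mucosal keratins outside the rule, 5 were called higher and none lower (median log2 fold change 2.97), and 3 to 5 higher with 1 pool left out. Krt80, of differentiating cells, was at 488.9 ± 128.7 CPM against 23.8 ± 22.2 CPM (5.06, SE 0.64, adjusted p = 0.0112). Krt78 (4.80), Krt16 (4.02), Krt23 (3.85) and Krt79 (3.21) were called as well, Krt79 with only 21.2 CPM in mTEClo pool 1 and 621.3 CPM in WT mTEChi pool 4. Krt13, a keratin of mucosal rather than epidermal suprabasal cells, was at 0 to 0.987 CPM against up to 28.4 CPM (−3.66, adjusted p = 0.0688), and was called lower without mTEClo pool 1. Of 10 basal-layer genes none was called higher (1 above 0, median −0.65). Without mTEClo pool 1, 1 was called higher, 5 were above 0 and the median was −0.27.

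The basal keratin pair did not move as a unit. Krt5 was at 452.4, 266.9, 852.3, 1428.97 and 920.5 CPM against 82.3, 98.7, 49.3, 1449.6 and 201.1 CPM. It was higher in the 4 mTEChi sums and level in mTEClo, and was not called (2.15, SE 0.55, adjusted p = 0.0625), though it was called higher without mTEClo pool 1. Krt14 was at 260.6, 56.4, 19.7, 319.8 and 368.2 CPM against 75.9, 119.3, 111.7, 735.2 and 162.98 CPM, higher in 2 pools and lower in 3 (−0.25, SE 0.65, adjusted p = 0.847), and its sign depended on the setting. None of the 5 simple-epithelial keratins was called, and Krt8 (0.26, SE 0.17) and Krt18 (0.41, SE 0.21) were near 0, with a negative sign when cells with 3 rule genes were admitted (and for Krt8 at 10 CPM).

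**Figure D3:**
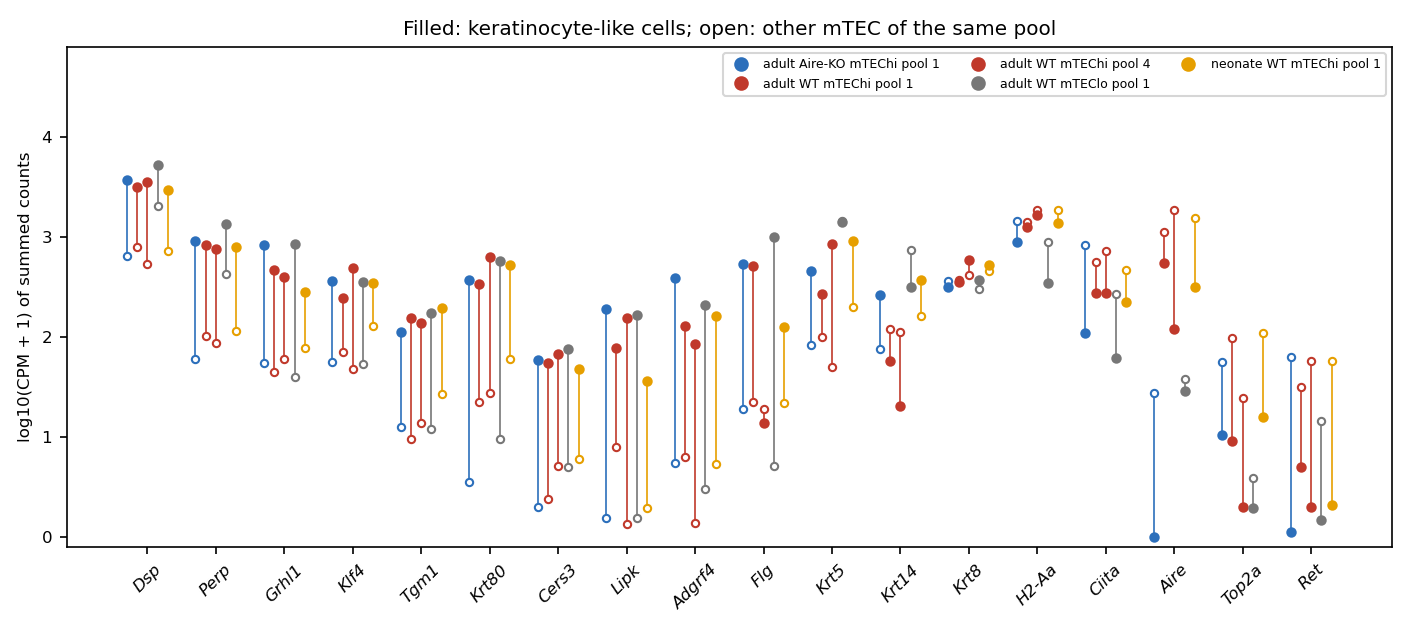
Level of 18 genes in the summed keratinocyte-like cells (filled) and the other mTEC of the same pool (open), as log10(CPM + 1), with 1 line per pool and 5 pools. Dsp to Adgrf4 lie above the other mTEC in every pool, Krt14 and Krt8 go both ways, and Ciita, Aire, Top2a and Ret lie below in every pool.

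Genes of cell contacts were called in 1 direction. Of 16 desmosome and plakin genes, 9 were called higher and none lower (median log2 fold change 1.98), 9 also without mTEClo pool 1 and 6 or 7 without another pool. Dsp (desmoplakin), which ties keratin filaments to desmosomes, was at 3707, 3181, 3588, 5224 and 2942 CPM against 640.9, 795.2, 539.5, 2029 and 730.1 CPM, with no overlap between the groups (2.24, SE 0.24, adjusted p = 0.00884). Perp, a desmosomal membrane protein, was at 911.2, 841.2, 762.5, 1337.4 and 799.3 CPM against 60.1 to 429.2 CPM (3.03, SE 0.33, adjusted p = 0.00911). The cornified-envelope plakins Evpl (4.26) and Ppl (2.16), the desmosomal cadherins Dsc1 (5.42) and Dsg3 (3.43), and the plaque proteins Jup (1.98) and Pkp1 (1.72) were called higher. Of 12 genes of tight and gap junctions, 3 were called higher and none lower (1 or 2 with a pool left out): the connexins Gjb6 (241.1 ± 42.3 against 21.2 ± 10.99 CPM, 3.89, SE 0.46, adjusted p = 0.00981) and Gjb2 (1.54), and the barrier claudin Cldn1 (2.47).

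Transcription factors and Notch genes of epidermal differentiation were called higher in 15 of 30 cases and lower in none (median log2 fold change 1.63), in 16 without mTEClo pool 1 and in 6 to 8 without another pool. Grhl1, a grainyhead factor that acts on desmosomal cadherin genes in skin, was at 829.4, 465.8, 399.3, 843.9 and 282.98 CPM against 38.7 to 76.1 CPM (3.40, SE 0.39, adjusted p = 0.00953). Klf4, required for the skin barrier, was at 364.2, 244.2, 492.5, 353.8 and 345.3 CPM against 46.6 to 128.1 CPM (2.53, SE 0.30, adjusted p = 0.00977). The differentiation factors Cebpa (2.33) and Cebpb (2.42), Klf5 (2.26) and Barx2 (2.42), and the Notch receptor Notch3 (2.77) with the Notch target Hes1 (2.80), were also called. Hes1 was higher in all 5 pools (94.7 ± 30.6 against 18.8 ± 17.1 CPM). Of 21 cytokines and alarmins 2 were called, Il1f5 and Il1f6, the interleukin-36 receptor antagonist and interleukin-36 alpha of skin (5.51 and 4.92), while Il1rn (1.28, adjusted p = 0.202) was not.

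Of the genes named by size outside the lists, Ceacam19 (6.21), Adgrf4, an adhesion receptor of keratinocytes (6.21), the skin exonuclease Trex2 (6.12), Lypd3 (6.00) and Cysrt1 (5.64) rose furthest. Lypd3, a surface protein of suprabasal keratinocytes, was at 200.9, 298.01, 484.6, 491.1 and 216.5 CPM against 1.63 to 18.9 CPM (SE 0.66, adjusted p = 0.00911). The genes that fell furthest were Esr1, the estrogen receptor (−6.83), Zan (−6.31), the mitotic gene Cenpf (−6.23), Kcnk9 (−6.01), Sez6 (−5.48), Ptprv (−5.41), Mrvi1 (−5.39), Dscam (−5.31), the receptor tyrosine kinase Ret (−5.29) and Lrat (−5.26). Esr1 was at 0 to 1.48 CPM in keratinocyte-like cells against 11.9 to 43.9 CPM in other mTEC (SE 0.85, adjusted p = 0.0108). Sez6 was at 0 to 3.82 CPM against 4.99 to 77.5 CPM. The keratinocyte-like sums hold only 4 to 15 cells, and the sums of other mTEC hold far more cells and reads. A gene read in a minority of cells can therefore be absent from the former and pass the low-count filter through the latter alone. The part of this in the falls was not tested.

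**Figure D4:**
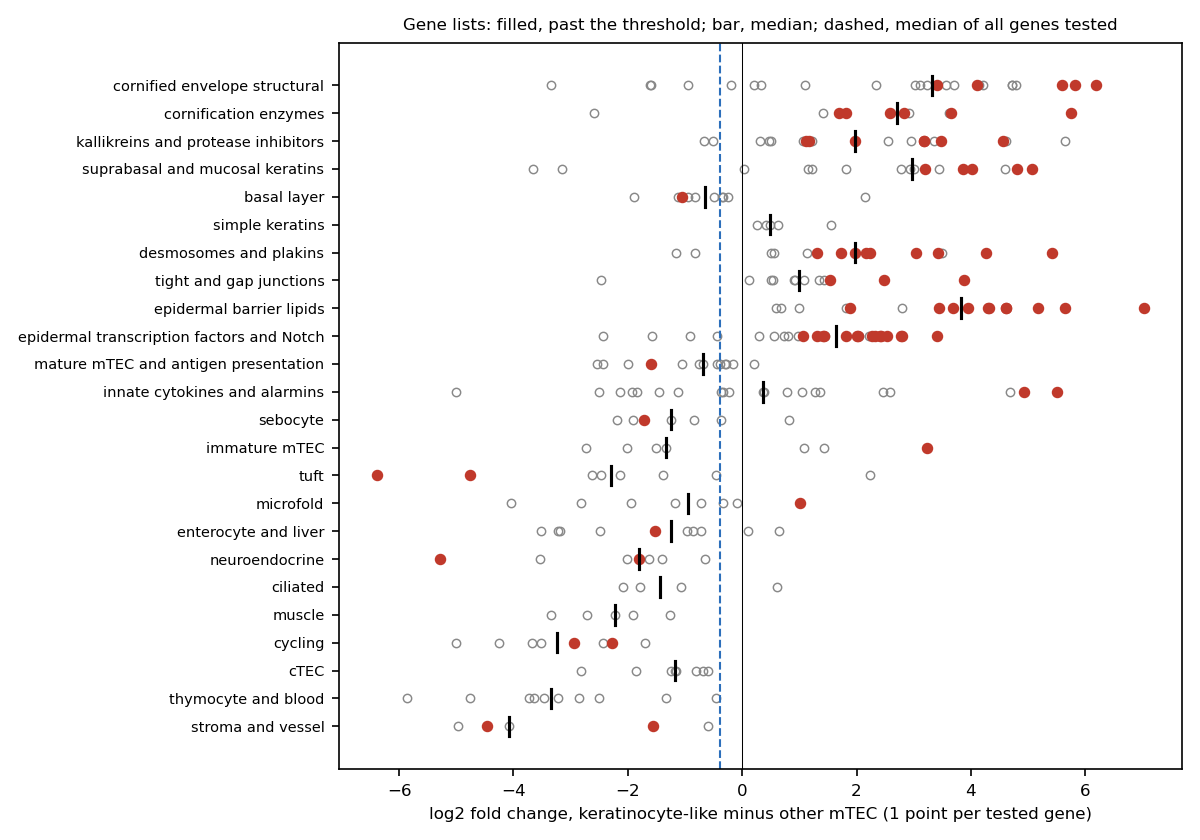
Log2 fold change of each tested gene in 24 gene lists, keratinocyte-like minus other mTEC; filled points passed the threshold, bars are list medians and the dashed line is the median of all tested genes (−0.39). Barrier lipids have the highest median (3.82) with all 16 points above 0, and the cycling, thymocyte and stroma lists have medians of −3.24, −3.35 and −4.08.

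Lists of other cell types had medians below 0, with few genes called. Of all 23479 tested genes, 7851 were above 0, 2.84% were called lower and the median was −0.39. The sums of other mTEC hold far more reads, so a gene of a rare cell type can pass the low-count filter through them alone. The part of this in the medians was not tested. Without mTEClo pool 1 the medians ran from −0.71 (mature mTEC) to −3.35 (cycling). Called then were 1 microfold gene higher, and 1 tuft, 1 neuroendocrine and 2 cycling genes lower. In 13 genes of mature mTEC and antigen presentation, Ciita, the activator of MHC class II genes, was called lower (109.6, 277.3, 273.4, 61.5 and 225.9 CPM against 834.01, 564.3, 731.2, 269.7 and 466.3 CPM, log2 fold change −1.59, SE 0.34, adjusted p = 0.0405). The Ciita call was lost whichever single pool was left out. H2-Aa, a class II gene, was at 902.2, 1260.4, 1678.9, 343.96 and 1398.1 CPM against 1448.5, 1401.2, 1845.9, 882.9 and 1845.3 CPM, lower in all 5 pools without being called (−0.43, SE 0.24, adjusted p = 0.297), and Cd74 (−0.16, adjusted p = 0.635) and Cd80 (−0.28, adjusted p = 0.777) were not called. The sort itself was on MHC class II.

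Among the 8 cycling genes, Top2a (−2.95, SE 0.42, adjusted p = 0.0140) and Mcm5 (−2.27) were called lower, and Mki67 was at 0, 21.97, 0.49, 2.95 and 5.08 CPM against 70.2, 156.8, 32.8, 8.09 and 134.6 CPM (−4.25, adjusted p = 0.0635). No keratinocyte-like cell of 50 had 3 or more of them at 20 CPM, which allows up to 6% of cells, against 13.4% of other mTEC. In other lists the calls were 1 or 2 genes: lower, Far2 (sebocyte, −1.71), Cdx1 (enterocyte and liver, −1.52), Insm1 (−1.81) and Ret (neuroendocrine), Col3a1 (−4.47) and Pdgfrb (stroma and vessel), and Gnat3 and Plcb2 (tuft), and higher, Plet1 (immature mTEC, 3.22) and Tnfaip2 (microfold, 1.01). The tuft list had a median of −2.30, with 1 of 8 tested genes above 0, which was Pou2f3. Gnat3, Plcb2 and Pdgfrb were named after their values were seen. Pou2f3, known from tuft cells and also from keratinocytes, was at 252.5, 196.7, 68.6, 290.8 and 21.3 CPM against 14.9 to 46.03 CPM and was not called (2.24, SE 0.59, adjusted p = 0.0697), while the tuft kinase Dclk1 was at 30.2 ± 47.4 against 94.6 ± 126.4 CPM. By cell, the markers of some lists were higher close to the edge of the rule: the 20 cells with 4 rule genes held 3 or more enterocyte and liver genes at 20 CPM in 70% (other mTEC 41.9%) and 3 or more microfold genes in 55% (other mTEC 43.9%), with median summed levels of 478.5 against 286.6 CPM and 874.6 against 457.3 CPM. In the 30 cells with 5 or more rule genes these shares were 26.7% and 23.3%. Most of the 20 cells were WT mTEChi, whereas the other mTEC here mix both sorts. In other mTEC, the summed enterocyte and liver genes were at 76.7 CPM in adult WT mTEClo pool 1 and 621.8 to 845.9 CPM in the mTEChi pools. The microfold genes were at 282.96 CPM and 676.9 to 1226.7 CPM. The part of the sort in these shares was not tested. The summed sebocyte genes had a median of 691.2 CPM in keratinocyte-like cells (3 or more genes in 8%) against 231.3 CPM in other mTEC (16.2%). The part of these markers in the results was not tested. None of the 8 cTEC genes was called (Prss16 −1.86, adjusted p = 0.121) and none of the 10 tested thymocyte and blood genes, of which Ptprc (CD45) was at 0.806 ± 0.925 against 13.9 ± 8.60 CPM (−4.77, adjusted p = 0.0501).

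Aire, the targeted gene, had no reads in any of the 8 Aire-KO keratinocyte-like cells, and their summed cells hold 7206768 reads. The other Aire-KO mTEChi held 26.8 CPM in sum, with 27.9% of cells at 20 CPM or more. In WT, keratinocyte-like cells had lower medians than the rest of their sort: in adult mTEChi they had a median of 48.1 CPM (1.89 to 2655 CPM, 21 cells) against 1098.9 CPM in the other cells, and in neonate mTEChi 64.3 CPM (22.9 to 1034.997 CPM, 12 cells, 4 of them at 200 CPM or more) against 1629.8 CPM. In the paired fit over all 5 pools, Aire was lower in every pool and was not called (0, 548.7, 119.9, 28.05 and 315.98 CPM against 26.8, 1125.1, 1862.5, 37.3 and 1549.6 CPM, log2 fold change −2.43, SE 0.93, adjusted p = 0.159).

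Levels moved in steps with the number of rule genes a cell reached. In WT mTEChi of both ages, the median Aire level was 1516.8 CPM in cells with none of the 8 genes, then 854.6, 672.02 and 332.5 CPM with 1, 2 and 3 genes, and 151.4, 69.4, 60.6 and 37.1 CPM with 4, 5, 6 and 7 or 8. At least 200 CPM of Aire was found in 89.7% of cells with no rule gene, in 8 of the 16 cells with 4 and in 2 of the 17 with 5 or more. Grhl1, which the rule does not use, moved the other way over all mTEC, with medians of 11.7, 15.4, 22.5 and 65.4 CPM at 0 to 3 rule genes and 157.8, 598.4, 535.5 and 1015.4 CPM at 4, 5, 6 and 7 or 8. Of the 16 barrier lipid genes, the median number at 20 CPM was 3 with no rule gene, 5 with 3, 7.5 with 4 and 13 with 7 or 8. Of the 10 basal genes it was 7 with no rule gene and 3.5 with 7 or 8. The cells share plates and pools, so these are descriptions over cells with no test.

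**Figure D5:**
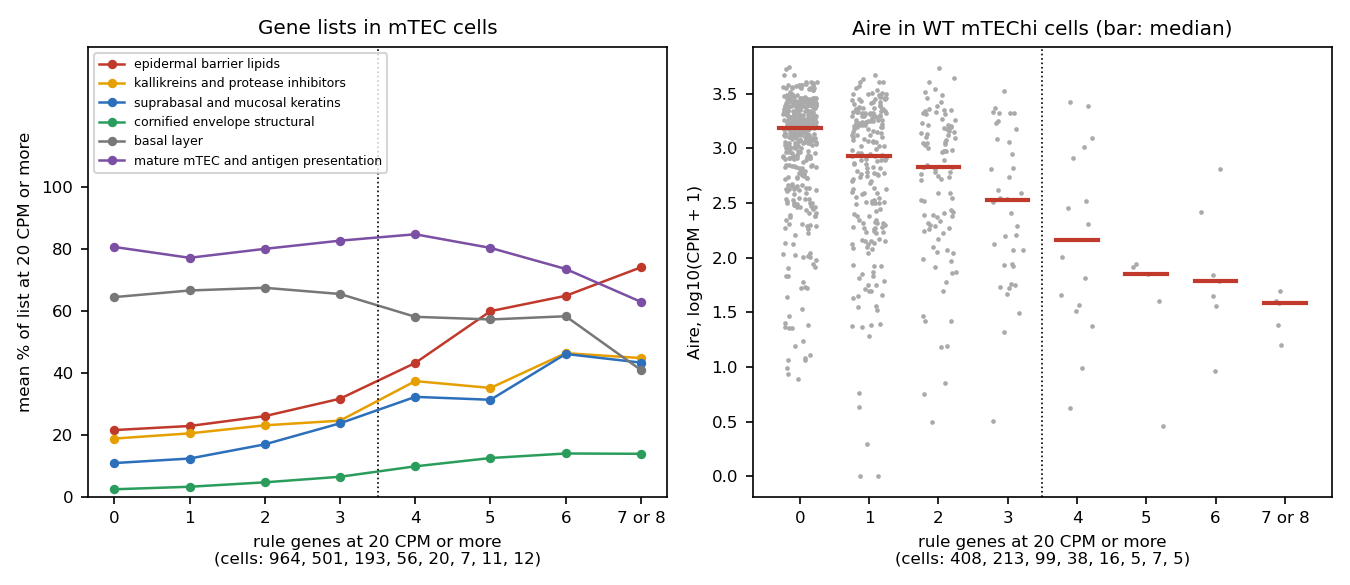
Left, mean percent of the genes of 6 lists at 20 CPM or more in mTEC cells, by the number of rule genes reached (0 to 7 or 8; cells per step on the axis); right, Aire as log10(CPM + 1) in single WT mTEChi cells by the same number, with red bars for medians. The dotted line is the cut of the rule. Barrier lipid genes go up through the cut, and median Aire goes from 1516.8 CPM at 0 genes to 37.1 CPM at 7 or 8.

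Within keratinocyte-like cells, genotype, sort and age were compared in a fit of the 5 sums with 1 residual degree of freedom, so that adult WT mTEChi, with 2 sums, supplied the spread for all groups. Those 2 sums were a male and a female pool of 4 weeks. The Aire-KO sum was of males of 5 weeks and the mTEClo sum of males of 8 weeks, and the groups were on different plates. Differences of genotype, sort or neonate age therefore cannot be told apart from those of adult age, sex and plate. In each comparison, edgeR called 0 of 20780 genes (0.0%) in either direction. At an unadjusted p under 0.05 stood 5.31% of genes for Aire-KO against WT mTEChi, 6.93% for adult WT mTEChi against mTEClo and 3.49% for neonate against adult WT mTEChi, and the smallest adjusted p values were 0.106, 0.0630 and 0.234. DESeq2 on the same sums called 1.43%, 1.66% and 0.279% of genes. A p that misses the threshold with so few sums does not show that these cells are alike.

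The values by group were as follows. Between Aire-KO and adult WT mTEChi, the 16 barrier lipid genes had a median log2 difference of −0.26 (all tested genes −0.19), desmosomes and plakins −0.24, and transcription factors and Notch 0.04. Dsp differed by 0.08 (SE 0.63) and Grhl1 by 0.88 (SE 0.58). Kallikreins and inhibitors had a median of −1.29 with 2 of 21 above 0, and cytokines −1.23 with 5 of 21 above 0, among them Il1f6, at 4.995 CPM in Aire-KO cells against 159.3 and 25.7 CPM in the WT pools (−4.30, SE 1.36, adjusted p = 0.675). Medians of other cell type lists differed further: microfold −5.35 (0 of 8 above 0), thymocyte and blood −5.02, cycling −4.38, neuroendocrine −4.10 (2 of 7 above 0) and enterocyte and liver −3.89 (1 of 10 above 0). The Aire-KO sum held reads of 7 of 8 microfold, 4 of 12 thymocyte and blood and 4 of 8 cycling genes. It held reads of 4 of 8 neuroendocrine and 5 of 10 enterocyte and liver genes. Summed, the neuroendocrine genes were higher in Aire-KO cells (261.4 CPM) than in the WT pools (131.5 and 9.87 CPM). The other lists named here were below both WT pools in sum. The part of unread genes in these medians was not tested. Between adult WT mTEChi and mTEClo, where mTEClo is the sum of pool 1 alone and no value without it can be given, the barrier lipid genes had a median of 0.32 (all tested genes 0.34) and Dsp differed by −0.61 (SE 0.62). H2-Aa, tied to the sort, was higher in mTEChi by 2.11 (SE 0.68, adjusted p = 0.512), and Krt79 by 4.18 (SE 1.01, adjusted p = 0.304). Here too other lists differed further, with medians of 6.09 for thymocyte and blood, 4.81 for enterocyte and liver (10 of 10 above 0) and 3.09 for microfold. The mTEClo sum held reads of 3 of 12 thymocyte and blood, 7 of 10 enterocyte and liver and 7 of 8 microfold genes. The part of these markers in the other values was not tested. Between neonate and adult WT mTEChi, 2 of the 23 structural envelope genes were above 0 (median −1.64) and 3 of the 16 barrier lipid genes (median −0.88), against a median of −0.07 over all tested genes, while Krt5 differed by 0.72 (SE 0.72) and Grhl1 by −0.64 (SE 0.62). These comparisons share the adult WT mTEChi sums.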

How the data were processed

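The authors sorted single cells into plates, prepared RamDA-seq libraries and counted reads per gene, and the deposited table holds raw counts of 48437 genes in 1980 cells, 1764 of them mTEC. The submitters' notes name fastp 0.20.0, STAR 2.7.3a, SAMtools 1.9, Picard 2.21.1 and HTSeq 0.11.2 on mm10. Strand was not used in counting, so overlapping antisense transcripts cannot be told apart. A deposited normalized table was not used. For 168 cells sequenced in 2 runs, the table's single column per cell was taken.

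CPM were counts over the cell's total. The keratinocyte-like cells were 50 of 1764 mTEC: 21 of 620 adult WT mTEChi, 7 of 357 adult WT mTEClo, 8 of 338 Aire-KO mTEChi, 0 of 154 Aire-KO mTEClo, 12 of 171 neonate mTEChi and 2 of 124 neonate mTEClo. Of 23479 genes tested, 674 were called higher and 667 lower. Counts were summed per pool and class (2026290 to 9422559 reads for keratinocyte-like, 46488813 to 342123240 for other cells). They were fitted in R 4.3.3 with edgeR 4.0.16 (filterByExpr, TMM, glmQLFit, pool as block, 4 residual degrees of freedom, as both classes of a pool share its group, age and sex labels). The code was also run on simulated counts with the same spread in all sums. Such a run cannot check a spread that differs between sums of few and of many cells. SE were the log2 fold change over the square root of F. Alternatives used DESeq2 1.42.0, other rule settings, cells thinned to 200000 reads, plates, and leaving out each pool. Genes were named from the lists (largest fold among calls with a mean of 20 CPM, and defining members) and, by size, the 10 largest changes in each direction that held in every pool. Members, lists and motifs were chosen with earlier results of these data known. Gene positions followed GENCODE M21. The result of 1 called gene of the lists is not reported here.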

Additional observations from a re-analysis of the deposited data

Results flagged for a closer look

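Sprr2d, a small proline-rich envelope protein, went with the keratinocyte-like cells in the mTEChi pools and not in the mTEClo pool. Its summed level in keratinocyte-like cells was 49.7 and 127.8 CPM in adult WT mTEChi pools 1 and 4, 4.44 CPM in Aire-KO mTEChi and 34.4 CPM in neonate mTEChi, against 0 to 2.30 CPM in other mTEC. In adult WT mTEClo pool 1 it was at 0 CPM in keratinocyte-like cells, and its log2 ratio to the other mTEC (with 0.5 CPM added to each) was −0.051, opposite in sign to both adult WT mTEChi pools. With 0 CPM in keratinocyte-like cells this ratio cannot be above 0, and it lies close to 0, so its sign alone says little. The mTEClo value rests on 5 cells and 2032237 reads, and the difference between the sorts was not tested.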

How the results depend on the processing

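The difference in share between adult WT mTEChi and mTEClo ran from 0.17 to 1.896 percentage points when single pools were left out, was positive with 3 of 8 genes, a level of 10 or 50 CPM, or cells thinned to 200000 reads, and was −0.15 with 5 of 8 genes. Between keratinocyte-like and other mTEC, the 5.71% of tested genes called became 20.6% (4830 genes) with DESeq2 and 10.9% (2085 genes) with plates as units (7 plates), and 1.65 to 3.30% when 1 of the 5 pools was left out: 1.74% without Aire-KO mTEChi, 2.23 and 1.65% without WT mTEChi pools 1 and 4, 3.30% without WT mTEClo pool 1 and 1.903% without neonate mTEChi. The cause was not tested. With 3 of 8 genes 4.10% were called, sharing 37.4% of the main calls and 50.97% of their own. Without the replicate block of pools, 4.58% were called, sharing 57.6% of the main calls and 71.9% of their own. Of 75 named genes that were called, 24 stayed called under every alternative run, and none of the 75 turned its sign. Genes named by size had to hold their direction in every pool, so their kept signs partly follow from that choice. Of all genes called in the main fit, 2 turned sign with 3 of 8 genes and 1 with 5 of 8 genes. At 10 CPM 3 turned and at 50 CPM 1, and none did in the other alternatives. Among the named genes, signs turned for uncalled ones only. Krt14 (−0.25) went to 0.62 (3 of 8 genes) and 0.64 (10 CPM), and ran from −0.78 to 0.26 over pools left out. Krt8 went to −0.12 (3 of 8 genes) and −0.094 (10 CPM), and Krt18 to −0.043 (3 of 8 genes). Cd80 went to 0.18 (3 of 8 genes) and ran from −0.75 to 0.11 over pools left out. Cd74 went to 0.10 (plates). Within keratinocyte-like cells, where no gene was called, calls for Aire-KO, sort and age were 1.43%, 1.66% and 0.279% with DESeq2 and 0.816%, 1.16% and 0.280% without a low-count filter. Scaling by RLE gave 0.0577% for Aire-KO and 0.111% for sort, a rule at 50 CPM gave 0.0167% for Aire-KO and 0.0726% for age, and the other alternatives run gave none. Fits with 5 of 8 genes, or without either WT mTEChi pool, left no residual degrees of freedom, and plates could not be fitted for the sort. Of 47 structural envelope genes, 23 had too few reads to pass the low-count filter of the main fit, so differences in them were not tested there.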

Other observations

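Outside mTEC, 2 cortical thymic epithelial cells (cTEC, sorted as Ly51+) met the same rule, 0.926% of all cTEC. Both were neonate WT cells. The cell with 7 of the 8 genes held 1730.2 CPM Spink5, 400.8 CPM Ivl and 519.5 CPM Grhl1 together with the cTEC genes Psmb11 (920.3 CPM) and Prss16 (568.6 CPM), over 244481 reads. The cell with 4 genes held 182.1 CPM Krtdap and 1148.8 CPM Krt5, and 9.67 CPM Grhl1 and 6.44 CPM Psmb11. Whether such a profile comes from 1 cell or from a pair of cells in a well was not tested.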
